A study of Mus musculus with 6 samples.

Results

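The synthesis of prostaglandins and leukotrienes was followed through 10 genes, taken from a fixed list of symbols and matched to the NCBI gene numbers of the deposited values. The list was chosen with earlier results of these data known. The genes are *Pla2g4a*, *Ptgs1*, *Ptgs2*, *Ptges*, *Ptgis*, *Ptgds*, *Alox5*, *Alox5ap*, *Ltc4s* and *Alox15*. All 10 were among the 17441 genes that had a value in at least 1 library. RNA came from heart tissue below the ligature of male mice, 12 weeks old by the labels, taken 3 days after surgery. WT Sham mice were wild type and had the operation without ligation, WT MI mice were wild type with a ligated left coronary artery, and *Card9* KO MI mice carried a *Card9* knockout and had the same ligation. Each group had 2 libraries, and nothing in the sources used here says whether a library was 1 mouse or a pool. All strains had a C57BL/6 background by the methods, which name both littermates and C57BL/6 mice as WT controls. Sham-operated *Card9* KO mice were not analysed here, and a contrast of *Card9* KO MI with WT Sham mixes genotype with infarction, which cannot be told apart in it. The targeted gene *Card9* was measured at 0.99 and 1.03 FPKM in sham libraries, 3.39 and 5.08 in WT infarct libraries, and 9.85 and 6.94 in *Card9* KO MI libraries (limma log2 difference between the infarct groups 0.85, adjusted p = 0.112). It was not lower in the libraries labelled as knockout, and every direction between these groups rests on the labels. FPKM is a value of the whole gene and does not show which exons were read. The paper also shows a blot of CARD9 protein in bone marrow-derived macrophages of WT and *Card9* KO mice, not in these hearts. Exons of *Card9* share 87 bases with an antisense noncoding gene.

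Prostaglandins and leukotrienes are short-lived lipid signals made from arachidonic acid. Cytosolic phospholipase A2, encoded by *Pla2g4a*, releases the acid from membranes. The cyclooxygenases of *Ptgs1* and *Ptgs2* turn it into prostaglandin H, from which terminal synthases make prostaglandin E (*Ptges*), prostacyclin (*Ptgis*) and prostaglandin D (*Ptgds*). In leukocytes the lipoxygenase of *Alox5*, helped by the membrane protein of *Alox5ap*, makes leukotriene A, which *Ltc4s* joins to glutathione. The enzyme of *Alox15* makes other hydroxylated fatty acids and takes part in the synthesis of lipid mediators that end inflammation. In the heart, prostacyclin is known as a vessel-widening product, and the inducible cyclooxygenase is known to appear after injury.

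Levels are given as FPKM, sequenced fragments scaled by gene length and library size, so they can be set side by side between genes. The libraries held an estimated 3006000 to 4291000 fragments, and the deposited values are above 0 in 14935 to 15852 genes of a library. The cardiomyocyte markers *Myh6*, *Tnnt2*, *Tnni3*, *Actc1*, *Myl2* and *Ryr2* were present in every library, with a summed FPKM from 21290 to 41315. Tests were made with limma on log2(FPKM + 1) for 13120 genes, those that reached 1 FPKM in 2 or more of the libraries, with the 3 groups in one fit, and an adjusted p below 0.05 over all these genes was taken as a call. A difference on this scale understates the change of low genes. Of the 10 genes, 8 could be tested. *Ptges* and *Alox15* reached an FPKM of 1 in only 1 library each. *Ptgs2* and *Pla2g4a* passed only through the infarct groups, because both were below 1 in WT Sham. All p-values measure only the spread between these libraries.

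The windows around the transcription start of the cyclooxygenase genes are shown because they belong to a gene that rose after infarction and to its paralog, which was not called. Those of *Pla2g4a*, which also rose, and of *Ptgds*, which fell, are shown for comparison. The sequences are from RefSeq on GRCm38.p6 and run from 250 bases before to 50 bases after the annotated start, on the strand of the gene. A window was present for 7 of the 10 genes. Capitals mark matches on either strand to the TATA box TATAAA, the cyclic AMP response core TGACG, the E-box CACGTG, the C/EBP palindrome TTGCGCAA, the AP-1 site TGANTCA, the GC box GGGCGG or the NF-kB consensus.
*Ptgs2*, chr1:150099781-150100080, plus strand: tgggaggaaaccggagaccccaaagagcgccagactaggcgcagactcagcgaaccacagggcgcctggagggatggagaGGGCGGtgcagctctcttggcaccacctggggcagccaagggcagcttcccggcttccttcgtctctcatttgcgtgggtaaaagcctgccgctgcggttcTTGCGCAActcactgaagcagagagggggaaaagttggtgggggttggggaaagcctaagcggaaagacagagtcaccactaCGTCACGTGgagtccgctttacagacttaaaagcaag
*Ptgs1*, chr2:36230176-36230475, plus strand: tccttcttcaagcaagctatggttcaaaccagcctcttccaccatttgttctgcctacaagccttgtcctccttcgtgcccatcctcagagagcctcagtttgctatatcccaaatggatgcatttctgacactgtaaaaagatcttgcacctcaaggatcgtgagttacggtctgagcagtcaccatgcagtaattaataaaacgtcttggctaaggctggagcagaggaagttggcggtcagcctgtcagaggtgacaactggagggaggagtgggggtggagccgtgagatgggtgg
*Pla2g4a*, chr1:149961241-149961540, minus strand: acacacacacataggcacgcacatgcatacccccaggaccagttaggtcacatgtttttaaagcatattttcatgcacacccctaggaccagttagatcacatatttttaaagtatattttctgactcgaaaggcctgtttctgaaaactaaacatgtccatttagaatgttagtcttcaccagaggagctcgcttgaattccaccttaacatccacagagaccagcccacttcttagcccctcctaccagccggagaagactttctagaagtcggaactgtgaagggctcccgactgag
*Ptgds*, chr2:25469700-25469999, minus strand: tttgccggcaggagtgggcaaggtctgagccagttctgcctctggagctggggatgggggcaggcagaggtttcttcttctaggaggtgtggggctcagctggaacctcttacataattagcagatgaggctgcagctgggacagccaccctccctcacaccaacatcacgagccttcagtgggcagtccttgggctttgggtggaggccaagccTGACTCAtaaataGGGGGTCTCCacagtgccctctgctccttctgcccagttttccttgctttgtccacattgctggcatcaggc

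The window of *Ptgs2* held a C/EBP palindrome, a GC box, and a cyclic AMP response core read on the opposite strand that overlapped an E-box by 2 bases. Over the 32851 windows of this table, the C/EBP palindrome was in 0.183%, the E-box in 7.15%, the response core in 20.8% and the GC box in 35.7%. The window of *Ptgds* held an AP-1 site (7.81% of windows) and an NF-kB consensus match (8.46%). The shown windows of *Ptgs1* and *Pla2g4a* held none of these letters, TATA box (13.6%) included, while the window of a second annotated start of *Pla2g4a* held a TATA box on the opposite strand. A match is a description of the sequence and was not tested against the values below.

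*Ptgs2* and *Pla2g4a* are neighbours: in mm9, the build of the deposited values, *Ptgs2* lies at chr1:151947254-151955140 on the plus strand and *Pla2g4a* at chr1:151676748-151808420 on the minus strand, with 138.8 kb between them. Of the other members, *Ptgs1* (chr2:36085946-36107792), *Ptges* (chr2:30744991-30785383), *Ptgis* (chr2:167017305-167066104) and *Ptgds* (chr2:25322229-25325566) lie on 1 chromosome. *Alox15* (chr11:70157654-70165533) and *Ltc4s* (chr11:50049971-50052118) share another, while *Alox5* is at chr6:116360095-116411196 and *Alox5ap* at chr5:150076634-150099621. Exons of *Ptgis* and *Ltc4s* overlap antisense noncoding genes by 156 and 192 bases. Whether the counting used strand is not given in the sources used here, so reads of these pairs may not have been told apart.

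Infarction in WT mice was followed by higher levels at several steps of the pathway. *Pla2g4a*, *Ptgs2*, *Ptgis* and *Alox5ap* rose and *Ptgds* fell, whereas *Ptgs1*, *Alox5* and *Ltc4s* did not pass the test. Thus 4 of the 8 tested genes were called higher and 1 lower, where 37.1% of all tested genes were called, 27.7% higher and 9.39% lower. The median log2 difference was 1.24 over the 8 genes and 0.19 over all tested genes, of which 3637 were called higher and 1232 lower. *Ptgs2* and *Pla2g4a*, tested only through their infarct libraries, are among the 4, so the count and the median describe the tested genes only. The members were also chosen with earlier results of these data known, so setting them beside all genes is a description only. Upper-quartile scaling moved the median of all genes to 0.00 and the split to 2603 higher and 2159 lower, and quantile normalization moved them to -0.07 and to 2288 and 2416. The 5 calls of these members were made under both scalings.

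**Figure D1:**
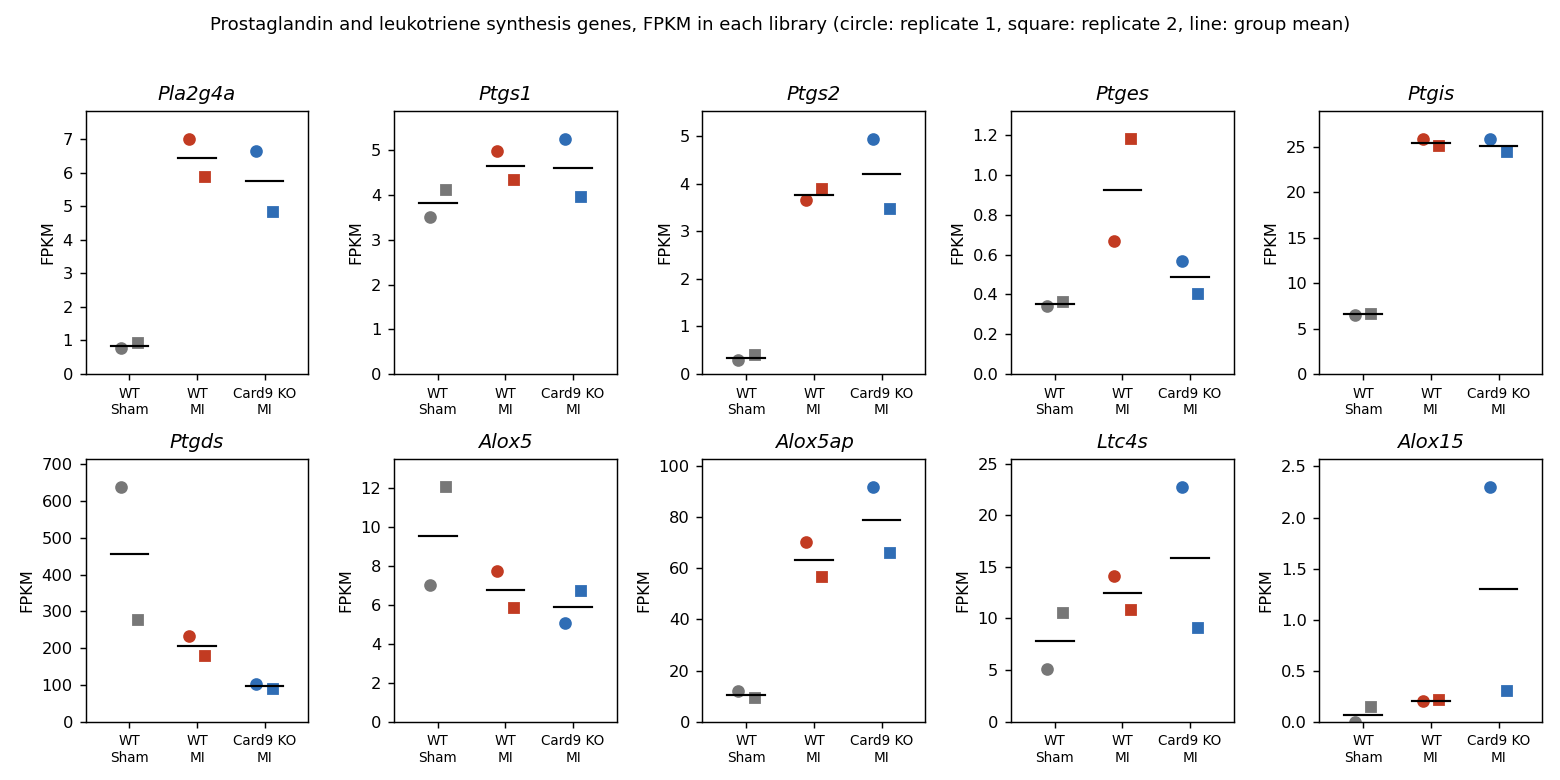
FPKM of the 10 genes in each library, on a linear axis from 0 for each gene; circles are replicate 1, squares replicate 2, and the line is the mean of the 2 libraries. *Pla2g4a*, *Ptgs2*, *Ptgis* and *Alox5ap* stand higher in all 4 infarct libraries than in WT Sham, *Ptgds* stands lower, and *Alox15* is above 1 only in *Card9* KO MI replicate 1, at 2.3.

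The phospholipase gene *Pla2g4a* stood at an FPKM of 0.77 and 0.92 in sham libraries and of 7.0 and 5.87 in WT infarct libraries. The infarct libraries lay far above both sham libraries, which held about 7.0 and 7.9 fragments of the gene. The mean rose 7.62-fold, from 0.845 ± 0.106 to 6.44 ± 0.799 (SD, n = 2 each), with a log2 difference of 2.01 (standard error 0.20, limma adjusted p = 3.06e-04).

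The cyclooxygenases differed in level and in response. *Ptgs1*, the form made constitutively in many tissues, had 3.51 and 4.12 in sham libraries and 4.98 and 4.33 in WT infarct libraries. Its libraries did not overlap, but the log2 difference of 0.23 (95% interval -0.20 to 0.66) did not pass the test (limma adjusted p = 0.364), and it was -0.09 with quantile normalization. *Ptgs2*, the inducible form, had 0.3 and 0.39 in WT Sham, or about 3.9 and 4.9 fragments, close to the FPKM of 0.229 and 0.241 that 3 fragments are worth. In WT MI it had 3.66 and 3.89, or about 60.9 and 63.0 fragments. The mean rose 10.9-fold, with a log2 difference of 1.83 (standard error 0.21, limma adjusted p = 5.53e-04), and the sham level behind this fold is known only roughly. *Ptgs2* did not meet the study's criteria of a fold change of at least 2 and a diverge probability of at least 0.8, recomputed from the FPKM, where its probability against WT Sham was 0.772 for WT MI and 0.781 for *Card9* KO MI. Within a library the ratio of *Ptgs2* to *Ptgs1* was 0.085 and 0.095 in sham libraries and 0.735 and 0.898 in WT infarct libraries, so that the inducible form came close to the level of its paralog only in infarcted tissue. No exact permutation test was run on such ratios, since its smallest two-sided p for 2 against 2 libraries is 0.333.

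Among the terminal synthases, *Ptgis*, which makes prostacyclin, gave the tightest values. It had 6.52 and 6.61 in sham libraries and 25.78 and 25.05 in WT infarct libraries. All infarct libraries lay within 1 narrow band well above the sham libraries. The mean rose 3.87-fold, from 6.57 ± 0.064 to 25.4 ± 0.516 (SD, n = 2 each), with a log2 difference of 1.80 (standard error 0.11, limma adjusted p = 4.51e-05).

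*Ptgds*, the lipocalin-type prostaglandin D synthase, was the most abundant of the 10 genes in every group. It had 638.61 and 276.05 in sham libraries and 232.49 and 178.43 in WT infarct libraries. The sham libraries differed from each other by more than the second of them differed from WT MI. The mean fell 2.23-fold, from 457 ± 256 to 205 ± 38.2 (SD, n = 2 each), with a log2 difference of -1.04 (standard error 0.34, limma adjusted p = 0.0443). This call was lost in 8 of 14 alternatives, and without WT Sham replicate 1 the log2 difference was -0.44 (limma adjusted p = 0.12). *Ptges*, the inducible prostaglandin E synthase, had 0.34 and 0.36 in sham libraries and 0.67 and 1.18 in WT infarct libraries, or about 3.9 to 16.8 fragments. It could be fitted only without the filter on low values, where its log2 difference was 0.50 (limma adjusted p = 0.0846).

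The leukotriene genes did not move as a block. *Alox5ap*, whose protein presents arachidonic acid to the lipoxygenase, had 11.89 and 9.3 in sham libraries and 70.02 and 56.47 in WT infarct libraries. The groups were far apart, and the mean rose 5.97-fold, from 10.6 ± 1.83 to 63.2 ± 9.58 (SD, n = 2 each). Its log2 difference of 2.47 (standard error 0.19, limma adjusted p = 1.06e-04) was the largest of the 8 tested members at a pseudocount of 1, while at a pseudocount of 0.1 *Ptgs2* (3.13) and *Pla2g4a* (2.79) were above *Alox5ap* (2.57).

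*Alox5*, the lipoxygenase itself, had 7.01 and 12.07 in sham libraries and 7.75 and 5.82 in WT infarct libraries. The groups overlapped, and the log2 difference was -0.41 (95% interval -1.01 to 0.19, limma adjusted p = 0.257). The ratio of *Alox5ap* to *Alox5* was 1.70 and 0.771 in sham libraries and 9.04 and 9.70 in WT infarct libraries. *Ltc4s*, whose product starts the cysteinyl leukotrienes, had 5.06 and 10.57 in sham libraries and 14.08 and 10.86 in WT infarct libraries. The groups did not overlap but came close, and the log2 difference of 0.68 (95% interval -0.31 to 1.66) did not pass the test (limma adjusted p = 0.25). *Alox15* was listed at 0 and 0.14 in sham libraries and at 0.2 and 0.21 in WT infarct libraries, or at most about 2.0 fragments, so no fold is given. All but *Alox5* of the 10 genes had libraries that did not overlap between WT MI and WT Sham, 8 of them higher and 1 lower. Among all tested genes, 70.4% did not overlap (48.3% higher, 22.1% lower). This share leaves out genes like *Ptges* and *Alox15*, which are among the 8 but were not tested.

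**Figure D2:**
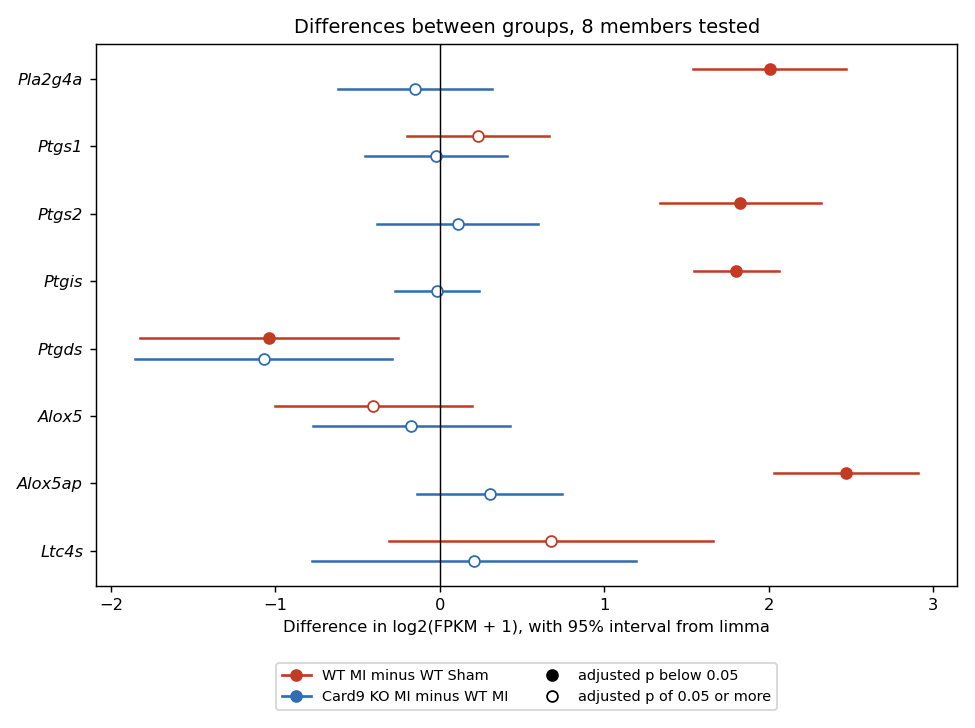
Differences in log2(FPKM + 1) with 95% intervals for the 8 tested genes, WT MI minus WT Sham in red and *Card9* KO MI minus WT MI in blue; filled points have a limma adjusted p below 0.05. The red points of *Pla2g4a*, *Ptgs2*, *Ptgis* and *Alox5ap* lie between 1.80 and 2.47, all blue points are open, and the lowest blue point is that of *Ptgds* at -1.07.

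Marker genes of leukocytes moved with these changes. All 9 macrophage markers (*Adgre1*, *Cd68*, *Csf1r*, *Fcgr1*, *C1qa*, *C1qb*, *C1qc*, *Mrc1* and *Lyz2*) rose from WT Sham to WT MI, and their summed FPKM went from 354 to 412 in WT Sham to 1410 to 1811 in WT MI. All 6 neutrophil markers tested rose as well, with sums of 5.40 to 7.64 in WT Sham and 92.9 to 212 in WT MI. *Retnlg* (0.54 and 0.56 in sham libraries) and *Mmp8* (0.13 and 0) passed the filter only through the infarct libraries, and *Ly6g* was listed in none. The counts of this paragraph are to be read against 27.7% of all tested genes called higher and 9.39% lower. Of 5 platelet markers, 4 were tested and 2 rose, with sums of 13.2 to 17.4 and 117 to 130. Of the 6 cardiomyocyte markers, 4 fell. Fibroblast markers summed to 397 to 407 in WT Sham and 715 to 983 in WT MI, with 3 of 5 higher. Endothelial markers summed to 249 to 262 and 256 to 261 (1 of 5 higher, 1 lower), and smooth muscle and pericyte markers to 179 to 206 and 216 to 239 (3 of 5 higher, 1 lower). The part of these cells in the changes was not tested, and in tissue RNA more cells of a type and more RNA per cell cannot be told apart.

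Set against the macrophage markers of the same library, the members fell into different patterns. Per 1000 FPKM of these markers, *Alox5ap* stood at 28.8 and 26.3 in sham libraries, at 49.7 and 31.2 in WT infarct libraries, and at 31.7 and 31.3 in the libraries labelled as knockout. On this scale *Ptgs2* went from 0.728 and 1.10 in sham to 2.60 and 2.15 in WT infarct libraries, and *Ptgis* was at 15.8 and 18.7 and at 18.3 and 13.8. *Alox5* was at 17.0 and 34.1 in sham libraries and 5.50 and 3.21 in WT infarct libraries. Relative to these markers, *Alox5* was thus lower in every infarct library than in either sham library, *Ptgs2* was higher, and *Ptgis* overlapped between WT Sham and WT MI and was lower, at 8.92 and 11.6, in *Card9* KO MI. Such a ratio shows only that the genes changed unequally.

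Mast cells, known to make leukotriene C and prostaglandin D, left little signal. Their markers summed to 5.40 to 7.23 in WT Sham and 9.08 to 9.32 in WT MI. *Kit* and *Hdc*, which other cells express too, made most of each sum except in WT Sham replicate 2. Of these 2 tested markers *Kit* rose. *Mcpt4*, low throughout and not tested, was at 0.25 and 0.79 in WT MI and at 0.98 and 1.02 in WT Sham, while *Cpa3*, *Tpsb2* and *Cma1* overlapped. Among all tested genes, 22.1% were lower in WT MI without overlap. Of the defining markers, *Cma1* was at 0 in 4 of 6 libraries, *Ms4a2* was listed in none, and *Cpa3*, *Mcpt4* and *Tpsb2* were at or below 1.23. Eosinophil markers summed to at most 1.91 in any library, with *Epx* and *Prg2* listed in none. Mesothelial markers summed to 4.07 to 7.29 over all libraries.

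Between the infarct groups, no member passed the test. In *Card9* KO MI against WT MI, limma called 0 of the 8 tested members at an adjusted p below 0.05, 1 of them had an unadjusted p below 0.05, and 1.4% of all tested genes were called (0.816% higher, 0.587% lower). The study's criteria, recomputed in the same way, picked 1 of the 10. In both cases this 1 gene was *Ptgds*. The libraries of the groups did not overlap in 3 of the 10 genes, *Ptgds* and *Ptges* lower and *Alox15* higher. Among all tested genes, the share was 52.7% (30.8% higher, 21.9% lower). *Ptges* and *Alox15* were not tested, so of the tested members only *Ptgds* is to be set against this share.

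*Ptgds* was at 103.44 and 89.85 FPKM in *Card9* KO MI, below the 232.49 and 178.43 of WT MI. Both libraries labelled as knockout lay under both WT infarct libraries. The mean was 2.13-fold lower, 96.6 ± 9.61 against 205 ± 38.2 (SD, n = 2 each), and the log2 difference was -1.07 (95% interval -1.85 to -0.29, limma adjusted p = 0.144). The wide spread of *Ptgds* in WT Sham entered this fit, because the 3 groups shared 1 estimate of the spread. With only the infarct groups in the fit the standard error was 0.15 in place of 0.34 and the limma adjusted p = 0.0432, and it was 0.0411 and 0.0417 without WT Sham replicate 1 and replicate 2. The log2 difference was between -1.26 and -0.88 with each library left out in turn.

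The genes that rose in WT MI had overlapping levels in *Card9* KO MI. *Ptgis* had 25.82 and 24.4, with a log2 difference from WT MI of -0.02 and a 95% interval from -0.27 to 0.24, the narrowest of the members. *Ptgs2* had 4.94 and 3.47 (log2 difference 0.11, interval -0.38 to 0.60), and *Pla2g4a* had 6.66 and 4.82 (-0.15, interval -0.62 to 0.31). *Alox5ap* had 91.72 and 65.98 (0.30, interval -0.14 to 0.74, limma adjusted p = 0.423). In each of these genes the libraries of the infarct groups overlapped. Changes within the bounds of these intervals are not excluded.

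*Ptgs1* and *Alox5*, not called after infarction in WT mice, were not called here either. *Ptgs1* had 5.25 and 3.95 FPKM in *Card9* KO MI (log2 difference -0.02, interval -0.45 to 0.41) and *Alox5* had 5.07 and 6.73 (-0.17, interval -0.77 to 0.43). The ratio of *Ptgs2* to *Ptgs1* was 0.941 and 0.878, and that of *Alox5ap* to *Alox5* was 18.1 and 9.80. The latter was 9.04 and 9.70 in WT MI, so only *Card9* KO MI replicate 1 stood clearly above.

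Replicate 1 of *Card9* KO MI stood apart in *Ltc4s* and *Alox15*. *Ltc4s* had 22.74 in it and 9.04 in replicate 2, values on either side of WT MI, and the log2 difference of 0.21 (interval -0.78 to 1.19) became -0.41 without this library. *Alox15* had 2.3 in it, or about 23.8 fragments, against 0.3 and about 3.0 fragments in replicate 2 and at most 2.0 fragments in any other library. The signal of *Alox15* therefore came from 1 library, and in the fit without a filter its log2 difference from WT MI was 0.78 (interval -0.24 to 1.80, limma adjusted p = 0.423). *Ptges* had 0.57 and 0.4, below both WT MI libraries, with a log2 difference of -0.36 in the same fit (limma adjusted p = 0.365). The same library held the highest sum of macrophage markers, 2894 against 2106 in replicate 2 and 1410 to 1811 in WT MI. The neutrophil markers summed to 46.7 and 59.8 in *Card9* KO MI, below WT MI, while 0 of the 9 macrophage and 0 of the 6 neutrophil markers passed the test between these groups. Fibroblast markers summed to 1263 to 1309 and smooth muscle and pericyte markers to 394 to 395, above WT MI. In each list, 1 of 5 was called higher, where 0.816% of all tested genes were called higher. The directions of single markers that follow rest on whether libraries overlapped and are not calls. *Col1a1* made most of the fibroblast sum (931.6 and 870.28 FPKM, against 359.07 and 515.63 for WT MI). The libraries of *Tcf21* lay above those of WT MI too, those of *Pdgfra* lay below (10.64 and 10.43 against 15.2 and 15.87), and *Dcn* and *Lum* overlapped. *Acta2* made most of the other sum (252.13 and 239.14 against 117.28 and 97.16). The libraries of *Myh11*, *Cnn1* and *Pdgfrb* lay above those of WT MI too, and *Rgs5* overlapped. Among all tested genes, 30.8% were higher without overlap and 21.9% lower. The part of all these cell types in the values was not tested.

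Against WT Sham, *Card9* KO MI gave the same calls as WT MI, from the same sham libraries. *Alox5ap* (log2 difference 2.77), *Ptgs2* (1.94), *Pla2g4a* (1.86) and *Ptgis* (1.79) were higher, and *Ptgds* was lower (-2.11, limma adjusted p = 0.00157). That is 4 of 8 tested genes called higher and 1 lower, against 34.8% and 14.3% of all tested genes, or 49.1% in both directions. The libraries did not overlap in 8 of the 10 genes, 6 higher and 2 lower, against 76.1% of the tested genes (51.6% higher, 24.5% lower). Of the 6, *Ptges* and *Alox15* were not among the tested genes. All tested genes split into 4569 higher and 1875 lower, into 3230 and 2884 with upper-quartile scaling, and into 2841 and 3409 with quantile normalization. Under both of these scalings *Alox5* was called lower too, with log2 differences of -0.80 and -0.94 against -0.58 as deposited (limma adjusted p = 0.0385, 0.0211 and 0.0985). Unlike in WT MI, the fall of *Ptgds* was called in all 14 alternatives, with log2 differences from -2.72 to -1.51.

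The makeup of the terminal prostanoid synthases was compared within libraries by adding *Hpgds*, the hematopoietic prostaglandin D synthase, and *Tbxas1*, thromboxane synthase, to *Ptgds*, *Ptges* and *Ptgis*. This set was chosen after the values were seen. The share of *Ptgds* in their summed FPKM was 98.5% and 96.8% in sham libraries, 86.6% and 81.6% in WT infarct libraries, and 69.3% and 69.1% in the libraries labelled as knockout. The 3 groups did not overlap, and the libraries labelled as knockout differed least. *Hpgds* was at 0.9 and 0.41 FPKM in sham libraries, 2.34 and 4.97 in WT infarct libraries, and 9.21 and 6.95 in those labelled as knockout. *Tbxas1* was at 1.75 and 1.66, 7.08 and 9.07, and 10.27 and 8.51. *Hpgds* was below 1 FPKM in both sham libraries and could be tested only through its higher infarct libraries. Its rise from WT Sham to WT MI passed the test (log2 difference 1.45, limma adjusted p = 0.00848). Its difference between the infarct groups, 1.01, did not (limma adjusted p = 0.135).

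**Figure D3:**
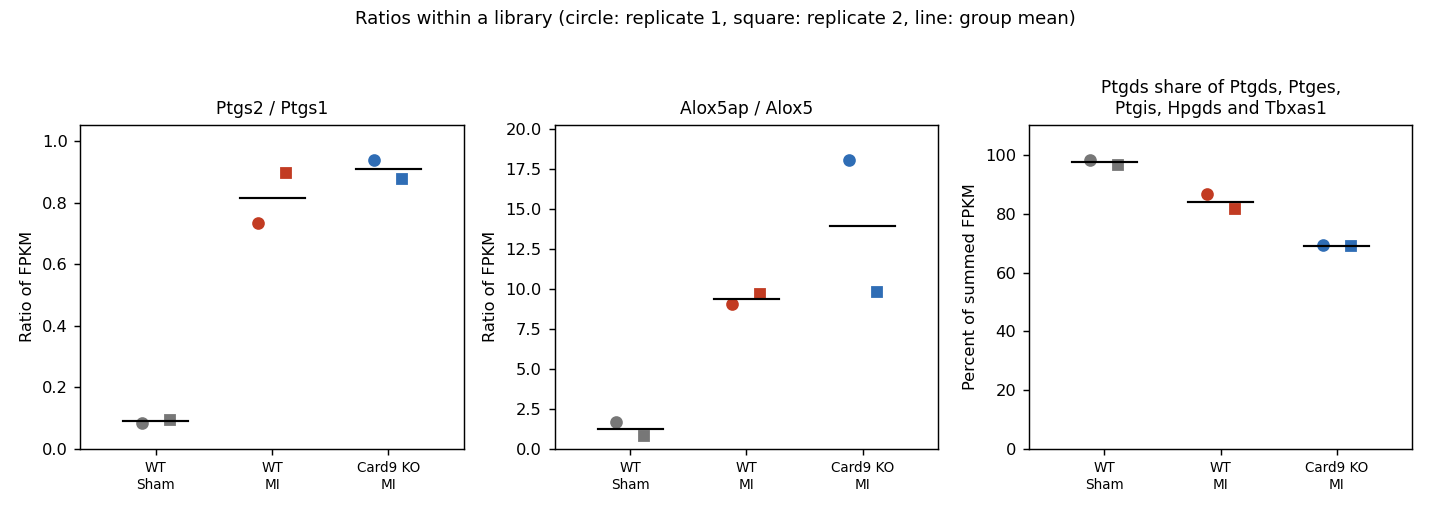
Ratio of *Ptgs2* to *Ptgs1*, ratio of *Alox5ap* to *Alox5*, and share of *Ptgds* in the summed FPKM of *Ptgds*, *Ptges*, *Ptgis*, *Hpgds* and *Tbxas1*, each per library and from 0; circles are replicate 1, squares replicate 2, lines group means. Both ratios are higher in every infarct library than in WT Sham, and the share goes from 98.5% and 96.8% in WT Sham to 69.3% and 69.1% in *Card9* KO MI.

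The rest of the pathway was read from a list of 47 genes for phospholipases, other synthases, breakdown and transport, and receptors. Of these, 45 had a value in some library (*Alox12b* and *Ptgdr* had none) and 34 could be tested. In WT MI against WT Sham, 14 rose, 4 fell and 16 did not pass the test, with a median log2 difference of 0.22, close to the 0.19 of all tested genes, of which 27.7% were called higher and 9.39% lower. Of the 14, 6 were below 1 FPKM in both sham libraries and could be tested only through their higher infarct libraries (*Dpep2*, *Cyp4f18*, *Ptgr1*, *Hpgds*, *Ltb4r1* and *Cysltr1*), so this count describes the tested genes and not the whole list. The counts by role below are from few genes and are to be read against the same shares. The split was 13 and 6 with upper-quartile scaling and 11 and 6 with quantile normalization.

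Among the genes listed under breakdown and transport, 5 of 10 tested genes rose and none fell. *Ptgr2*, a prostaglandin reductase that the list counts with the other synthases, fell. *Dpep2*, a dipeptidase that trims leukotriene D, went from 0.18 and 0.37 to 11.65 and 7.08 (log2 difference 2.99, limma adjusted p = 2.5e-04). *Cyp4f18*, a cytochrome P450 that oxidizes leukotriene B, went from 0.19 in both sham libraries to 8.31 and 5.96 (2.76, limma adjusted p = 7.83e-05). *Ptgr1*, which reduces prostaglandins and leukotriene B, went from 0.3 and 0.31 to 3.41 and 4.11 (1.86, limma adjusted p = 3.27e-04). These 3 of the 5 passed the filter on low values only through the infarct libraries.

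Among phospholipases, 2 of 7 tested genes rose and 1 fell. *Pla2g7*, an enzyme that breaks down platelet-activating factor and is made by macrophages among other cells, went from 3.46 and 3.61 to 24.07 and 21.18 (log2 difference 2.38, limma adjusted p = 6.44e-05). *Pla2g5*, a secreted phospholipase, fell from 22.99 and 29.31 to 10.98 and 10.27 (-1.21, limma adjusted p = 5.96e-04). Among the genes listed as other synthases, 4 of 11 rose and 3 fell: *Akr1b3* (log2 difference -0.67), an aldose reductase that can make prostaglandin F, *Ptgr2* (-0.49) and *Ptges2* (-0.43). Of these, *Ptgr2* is a prostaglandin reductase and not a synthase. *Akr1b3*, the most abundant of them, was at 157.82 and 141.38 in sham libraries and 90.9 and 96.18 in WT infarct libraries.

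Of the receptors, 3 of 6 tested genes rose and none fell, and 2 of the 3 (*Ltb4r1* and *Cysltr1*) passed the filter only through the infarct libraries. *Ltb4r1*, the high-affinity receptor of leukotriene B, stood at 0.23 and 0.24 in sham libraries, 5.37 and 2.76 in WT infarct libraries, and 2.36 and 0.88 in those labelled as knockout. The rise from WT Sham to WT MI passed the test (log2 difference 1.99, limma adjusted p = 0.00385), and the difference between the infarct groups, -0.96, did not (limma adjusted p = 0.186). The libraries of *Card9* KO MI lay below those of WT MI, as in 21.9% of all tested genes. The sums of the neutrophil markers were below WT MI too, and the part of neutrophils in *Ltb4r1* was not tested.

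**Figure D4:**
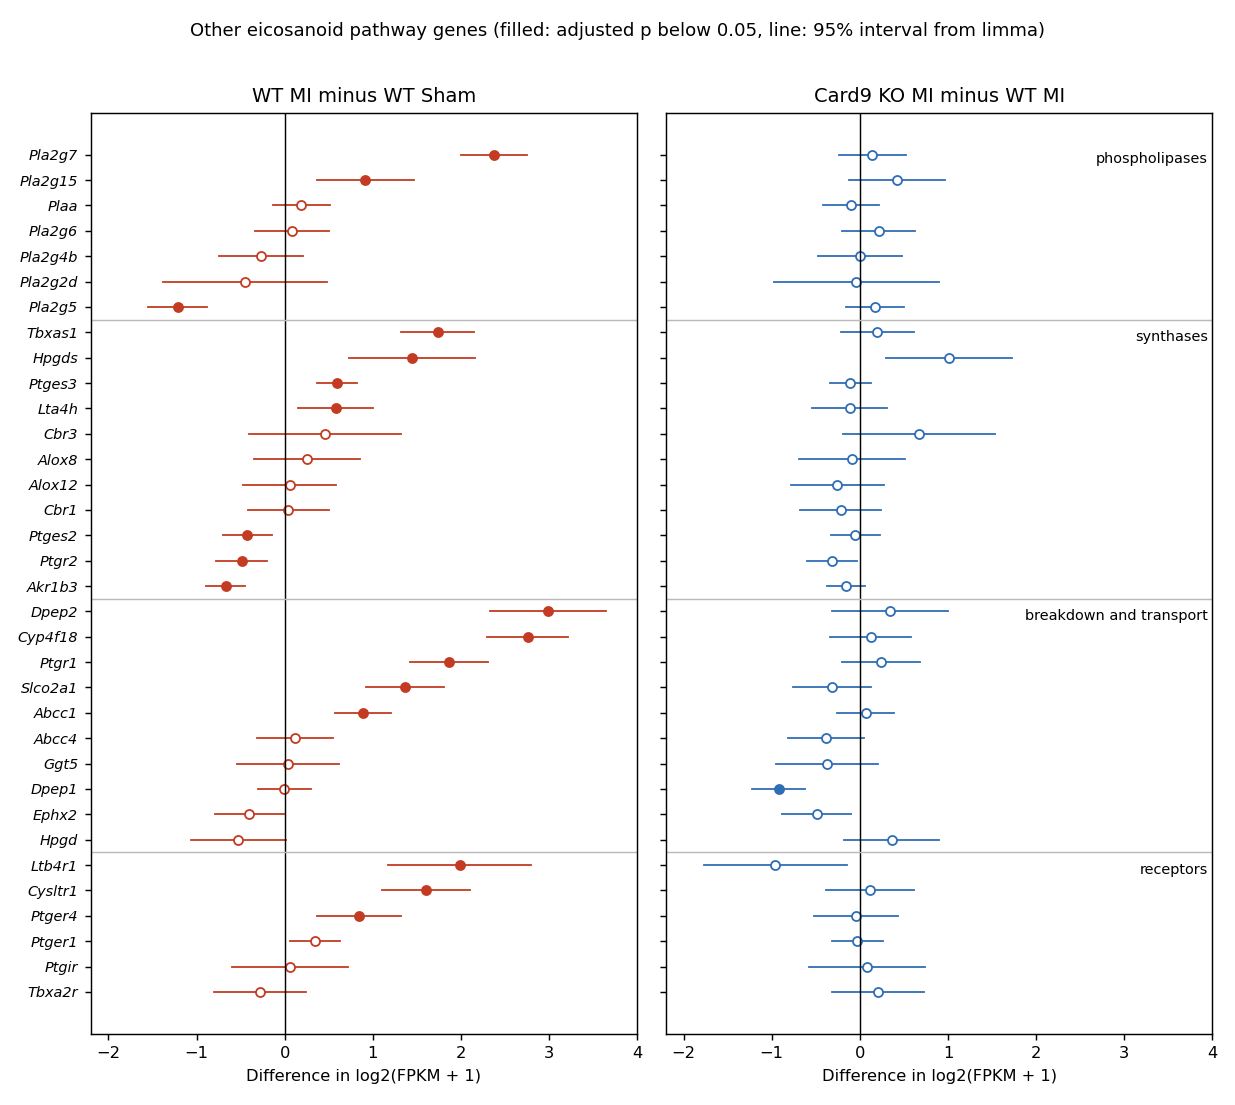
Differences in log2(FPKM + 1) with 95% intervals for the 34 tested genes of the wider pathway, grouped by role, WT MI minus WT Sham on the left and *Card9* KO MI minus WT MI on the right; filled points have a limma adjusted p below 0.05. On the left 14 genes are filled to the right of 0 and 4 to the left, and on the right *Dpep1* is the 1 filled point.

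In *Card9* KO MI against WT MI, 0 of the 34 tested pathway genes rose and 1 fell, where 0.816% of all tested genes were called higher and 0.587% lower. This was *Dpep1*, another dipeptidase of the leukotriene pathway that also acts on other peptides. It stood at 25.55 and 27.38 FPKM in sham libraries, at 24.48 and 28.44 in WT infarct libraries, and at 12.37 and 14.61 in those labelled as knockout. WT Sham and WT MI overlapped, and both libraries labelled as knockout lay below the other 4. The log2 difference was -0.92 (standard error 0.13, limma adjusted p = 0.0274), and -0.96 and -0.97 with upper-quartile scaling and quantile normalization. As deposited, it fell short of a fold change of at least 2, so the alternative that asks for this lost the call. The call was lost without the filter on low values (limma adjusted p = 0.0818), with only the groups compared (0.0516), without the trend (0.0735), and on leaving out any single library other than WT Sham replicate 1 (0.0508 to 0.154), while the log2 difference then stayed between -1.03 and -0.81. In *Card9* KO MI against WT Sham, 14 pathway genes were called higher and 6 lower, or 11 and 6 with upper-quartile scaling and 11 and 10 with quantile normalization. As deposited, 34.8% of all tested genes were called higher and 14.3% lower in this contrast.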

How the data were processed

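RNA-seq of heart tissue was available for 6 libraries in 3 groups, assigned from the sample titles. Libraries of enriched mRNA were read on an Illumina HiSeq, the authors mapped the filtered reads to mm9 (Bowtie2 and BWA in the submitters' notes), and they deposited FPKM with 2 decimals for every gene above 0. These values are scaled to library size, so a large change of abundant genes shifts all others. Unlisted genes were set to 0. The gene annotation and tool versions are not given in the sources used here. Symbols came from a GRCm38.p6 table (17390 of 17441 genes), and positions from GENCODE M1 on mm9.

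Fragments per library were estimated from the steps between low FPKM values of genes with 1 transcript. Of these values 74.3% to 79.2% were within 0.15 of a whole fragment, so counts were not rebuilt. Fragment numbers cover counting error only. The fit used limma 3.58.1 in R 4.3.3 (lmFit, eBayes with trend) with Benjamini-Hochberg adjustment, and was tested on simulated data. In simulated WT MI against WT Sham libraries, it called 26 of 50 genes changed by a log2 of 1 and 88 of 100 changed by 2. It called 48 of 50 changed by 3, with 8 false calls. Python 3.11.15 did the rest.

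The members and lists were chosen with earlier results of these data known. Named genes are the members, *Card9*, and called pathway genes, at most 5 per direction, while *Hpgds* and *Tbxas1* were added after their values were seen. Alternatives changed the pseudocount, filter, scaling, groups fitted, trend, replicate block, fold change, criteria and each library.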

Additional observations from a re-analysis of the deposited data

How the results depend on the processing

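Over 14 alternatives per member and comparison, 310 of 336 values kept their direction and side of the threshold, and the rises of *Pla2g4a*, *Ptgs2*, *Ptgis* and *Alox5ap* in both infarct groups were called in all of them. Some of the 14 cannot move a log2 difference, only its p-value. These drop the filter or the trend, add the replicate block, or leave out libraries of the group not compared. The study's criteria are not among the 14, and *Ptgs2* did not meet them in either infarct group (probability 0.772 and 0.781). In *Card9* KO MI against WT MI, 1 member (*Ptgds*) was called with only the groups compared and by the study's criteria, and 0 to 1 with each library left out. The count of all genes called there, 184, was 80 and 312 at a pseudocount of 0.1 and 5, 12 without the filter, 101 with only the groups compared, 58 without the trend, 71 with the replicate block, 96 with a fold change of at least 2, and 8 to 96 with each library left out. In WT MI against WT Sham, 4869 became 1707 with that fold change, 1177 by the study's criteria and 2883 to 4675 with each library left out. In *Card9* KO MI against WT Sham, 6444 became 2544 and 1788. Reversed log2 differences, all uncalled, were those of *Ptgs1* with quantile normalization against WT Sham (-0.09 in WT MI, -0.21 in *Card9* KO MI). Between the infarct groups, uncalled differences changed sign as single libraries were left out: *Alox5* ranged from -0.35 to 0.01 (0.00 without *Card9* KO MI replicate 1), *Ltc4s* from -0.41 to 0.83, *Pla2g4a* from -0.35 to 0.05, *Ptgis* from -0.06 to 0.02, *Ptgs1* from -0.19 to 0.15 and *Ptgs2* from -0.09 to 0.32. The cause was not tested. Libraries share only a replicate number: deviations of same-numbered libraries correlated at -0.008 to 0.020, and the block changed no call of a member. *Ptges*, *Alox15* and *Ptgs2* in WT Sham rest on few fragments. Against WT Sham, *Ltc4s* in *Card9* KO MI was called once, without replicate 2 of that group (log2 difference 1.50, limma adjusted p = 0.0196). With 1 library of a group left out, the other is assumed to vary like the other groups.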
